A study of Mus musculus with 4 samples.

Results

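Kidney RNA of a mouse sample injected with vancomycin at zeitgeber time 2 (ZT2, 2 hours after the lights come on) was compared with that of a saline sample injected at the same time. These were 2 of the 4 arrays of the series, chosen by their labels, and the other 2 came from injections at ZT14. All mice were of the outbred ICR strain, and kidneys were taken 1 day after injection. Group saline at ZT2 and group vancomycin at ZT2 had 1 array each, so each difference is a size with no test, and no spread between animals is known. The dose, the age and sex of the mice and the number of mice behind each RNA are not given in the labels. Both arrays lay on 1 slide at different positions, and a position effect cannot be told apart from that of vancomycin.

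Vancomycin is a glycopeptide antibiotic that is filtered by the glomerulus and reaches the proximal tubule, the segment that reabsorbs most of the filtrate and takes up and secretes many drugs. High exposure is known to injure proximal tubule cells. The kidney is also a clock-bearing organ, in which transporter and enzyme genes follow the time of day, and it lies against the adrenal gland, fat and the urothelium of the renal pelvis, whose genes can enter a kidney sample.

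Each of the 56605 probes is a strand of DNA that captures labelled RNA, and its brightness was expressed as a percentage of the 75th percentile of all spots on its array (the scaled signal). A probe was counted as measured where its spots were well above the local background. Of 37008 gene entries 23077 were measured on at least 1 of the 2 arrays, each by its brightest probe: 21236 on both, 1240 on the saline array only and 601 on the vancomycin array only. Where only 1 array was above background, the difference is a lower bound against the dimmest signal well above background on the other array, and for 155 genes that left no difference. Probes spotted 5 times or more had a median SD between spots of 0.041 on the saline array and 0.042 on the vancomycin array, in log2 units, which is spread within an array and not between animals. The saline array had 62.2% of its spots well above background and the vancomycin array 60.6%.

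Most genes had nearly the same scaled signal on both arrays. Over the 21236 genes above background on both, the median log2 difference, vancomycin minus saline, was 0.0045, the quartiles were -0.20 and 0.20, and 82.1% of genes lay within 0.5. With bounds counted at their value, 459 genes (1.99% of 23077) were higher by 2-fold or more with vancomycin and 893 (3.87%) were lower by 2-fold or more. Of the lower genes, 752 were other than immunoglobulin entries. Among genes above background on both arrays the counts were 300 higher (1.41%) and 663 lower (3.12%), and at 4-fold they were 35 and 161. Dim genes passed 2-fold more often than bright ones. Of the dimmest 5309 genes 2.77% were higher and 5.22% lower, and of the brightest 5309 genes 0.471% and 0.904%. Both totals moved with the treatment of dim signals. They were 132 higher and 333 lower with another background correction (normexp), which here also added an offset of 50 to every signal. A constant added to both arrays shrinks the differences of dim genes most. With no filter on dim probes the totals were 2401 higher and 2078 lower, so that higher genes were then the larger group.

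**Figure D1:**
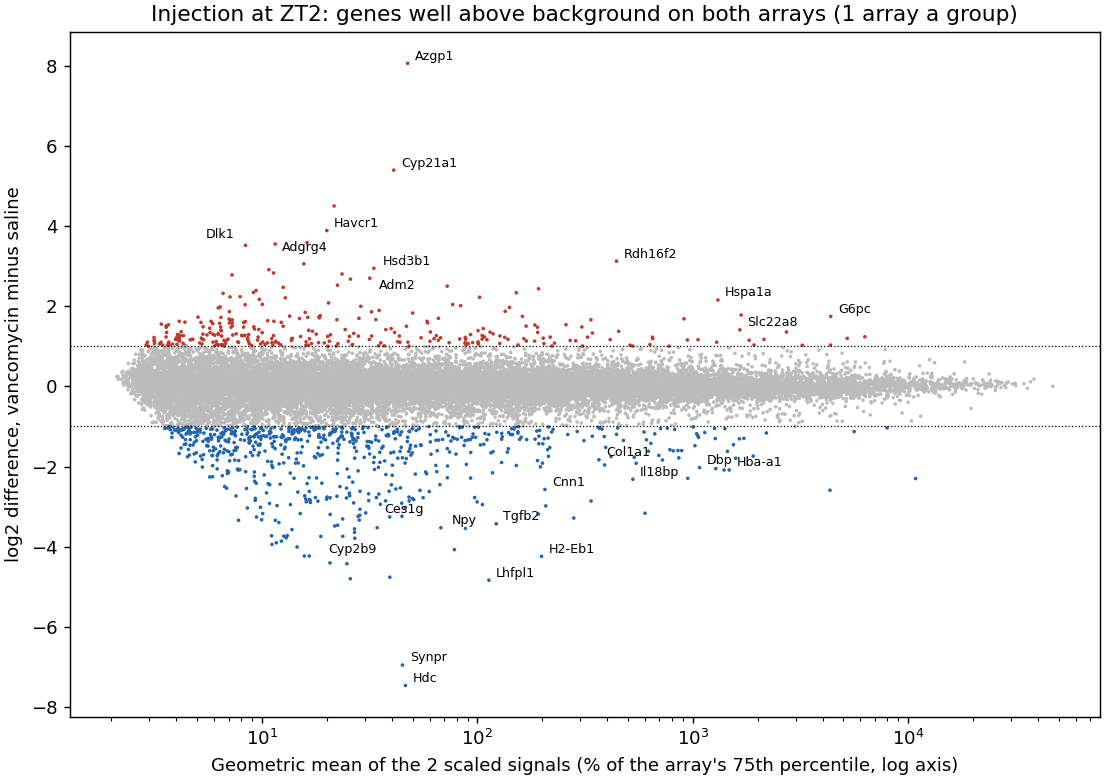
The log2 difference, vancomycin minus saline, of each of 21236 genes is plotted against the geometric mean of its scaled signals on a log axis, with 1 array a group. Red points (300) are 2-fold or more higher, blue points (663) are 2-fold or more lower, and the dotted lines mark 2-fold. The spread narrows from the dim genes on the left to the bright genes on the right.

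The largest increase among genes measured on both arrays was that of Azgp1, which encodes a secreted zinc-binding glycoprotein linked to lipid mobilisation. Its scaled signal was 2.91% with saline and 775% with vancomycin, a 267-fold difference from its single probe. The saline signal lay near 1.91%, the dimmest level well above background on that array, so the fold rests on a dim signal. Of the 12 largest increases of genes with an ordinary symbol, Rdh16f2, of the retinol dehydrogenase family, was the only gene bright on both arrays, at 149.8% with saline and 1306% with vancomycin (8.72-fold). Havcr1, the kidney injury molecule of damaged proximal tubules, had 5.20% with saline and 76.9% with vancomycin (14.8-fold), again from 1 probe. Cdk14, a cyclin-dependent kinase gene, was higher 12-fold, the adhesion receptor gene Adgrg4 11.7-fold and Dlk1, a Notch-related ligand gene, 11.4-fold. Abcb1b, an efflux pump gene, had 4.24% with saline and 30.2% with vancomycin, Klf1, a transcription factor of red cell precursors, 2.77% with saline and 19% with vancomycin, and Adm2, a peptide hormone gene, 12.4% with saline and 80.6% with vancomycin. Second probes of Cdk14, Dlk1 and Klf1 were above background with vancomycin only, with log2 bounds of 0.85, 1.34 and 1.19. The saline signals of Dlk1 (2.48%) and Klf1 by their brightest probes also lay near 1.91%. The remaining 3 of the 12 were Cyp21a1, Hsd3b1 and Mgarp, described with the adrenal genes.

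Among the largest decreases were Hdc, which encodes the enzyme that makes histamine, and Synpr, a synaptic vesicle gene. Hdc had 616% with saline and 3.49% with vancomycin, a 176-fold difference, and Synpr 499.6% with saline and 4.03% with vancomycin, or 124-fold. Both folds rest on a dim vancomycin signal, as the dimmest level well above background there was 2.25%. Hdc had 2 further probes above background with saline only, whose bounds were -3.06 and -1.07 on the log2 scale, and a second Synpr probe likewise had a bound of -2.07. Lhfpl1, a tetraspan gene, had 604% with saline and 21.2% with vancomycin. H2-Eb1, a class II antigen-presenting chain, had 863% with saline and 45.6% with vancomycin, and Tgfb2, a secreted cytokine gene that drives scarring, 401% with saline and 37.3% with vancomycin. Also among the 12 largest decreases were Naaladl2 (14.9-fold), the Wnt ligand gene Wnt10a (13.8-fold), the cytochrome P450 gene Cyp2b9 (13.4-fold), Npy (11.5-fold), which encodes neuropeptide Y, the carboxylesterase gene Ces1g (11.5-fold) and the imprinted gene Nnat (10.1-fold).

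Genes above background on a single array give bounds. With vancomycin only, the chromogranin genes Chgb and Chga reached 115% and 93.1%, at least 60.2-fold and 48.7-fold higher. Ucp1, the uncoupling protein of brown fat, reached 34.9%, at least 16.1-fold. Prim2, a DNA primase subunit gene, was at least 27.4-fold higher by its brightest probe, whereas another Prim2 probe, above background on both arrays, differed by 0.08 on the log2 scale. With saline only, Irs4, an insulin receptor substrate gene, was at least 27.5-fold lower, Padi4, a neutrophil enzyme gene, at least 21.7-fold and Meltf, an iron-binding melanotransferrin gene, at least 14.9-fold. Ccl8, a monocyte chemokine gene, had 32.2% with saline and was at least 14.3-fold lower. Ppp1r3g, a glycogen regulator gene, and Fabp9, a fatty acid-binding protein gene, were at least 11.3-fold and 9.55-fold lower.

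**Figure D2:**
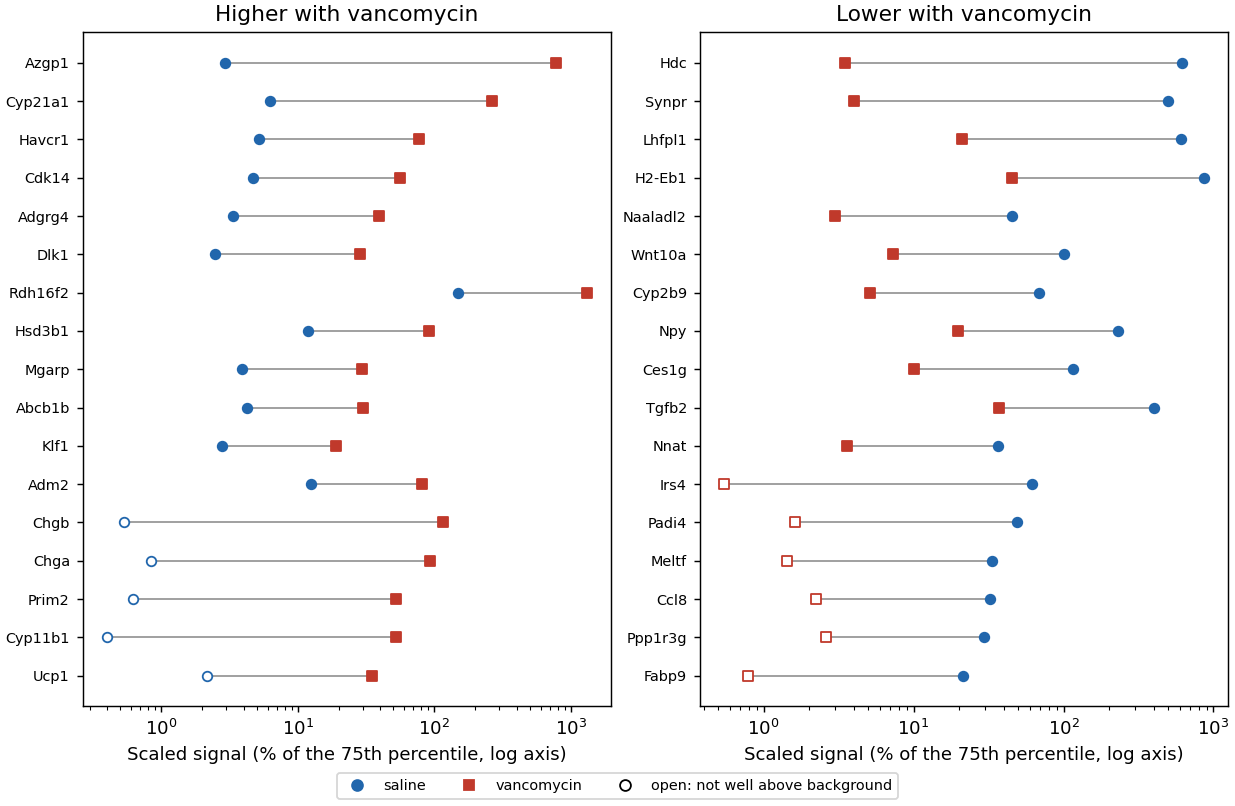
Scaled signal of single genes on the saline array (blue circles) and the vancomycin array (red squares), in percent of each array's 75th percentile on a log axis. In each panel genes measured on both arrays come first and genes measured on 1 array follow, and open symbols are signals not well above background. Azgp1 goes from 2.91% to 775% and Hdc from 616% to 3.49%.

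Nearly all marker genes of the nephron were above background on both arrays, and 1 was past 2-fold. All 15 podocyte markers, the cells of the glomerular filter, lay between -0.38 and 0.36 with a median of -0.01. Of 16 markers of the early proximal tubule 1 passed 2-fold, the organic anion uptake carrier gene Slc22a8, at 1014% with saline and 2694% with vancomycin. The endocytic receptor gene Lrp2, which takes up filtered proteins and aminoglycosides in this segment, differed by 0.31, and the glucose carrier gene Slc5a2 by -0.17. Of the thin limb 5 of 6 markers were measured, between -0.51 and 0.83. The late proximal tubule (9 genes, median -0.05), thick ascending limb (8, 0.27), distal convoluted tubule (8, 0.13) and intercalated cells (11, 0.21) had 0 genes past 2-fold. In the thick ascending limb 7 of 8 markers were above 0, with Egf, the epidermal growth factor precursor, highest at 0.63. Among 11 markers of the connecting tubule and principal cells, 10 of them on both arrays, the water channel genes Aqp2 and Aqp4 differed by -0.33 and 0.78. Of 6 sex-linked genes the Y-linked Ddx3y, Eif2s3y, Kdm5d and Uty were above background on both arrays with differences of -0.13 to 0.30, and Xist and Tsix on 0 of the 2.

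Genes of the adrenal cortex, which makes steroid hormones, were among the largest increases. Cyp21a1, the steroid 21-hydroxylase gene, had 6.30% with saline and 265% with vancomycin. Star, which moves cholesterol into mitochondria, had 10.2% with saline and 65.1% with vancomycin, and Hsd3b1 had 11.9% with saline and 91.7% with vancomycin and was higher by both of its probes (log2 2.94 and 1.17). Cyp11a1, which makes pregnenolone, and Cyp11b1, which makes corticosterone, were not well above background with saline and were at least 8.79-fold and 27.3-fold higher. Mgarp, a mitochondrial gene abundant in steroid-making tissue, had 3.92% with saline and 29.5% with vancomycin. In all, 5 of 13 measured cortex markers were higher by 2-fold or more (1.99% of all genes were) and 1 was lower, Mrap, an accessory protein of the corticotropin receptor (-1.02). The median of the 11 on both arrays was 0.34, and the summed scaled signal of the list was 3524% with saline and 4015% with vancomycin. Nr5a1, the steroidogenic factor that defines the cortex, was above background on both arrays and differed by 0.31. The ferredoxin gene Fdx1, which the tubules also express, made up most of the sum, at 3093% with saline and 3030.2% with vancomycin, and without it the sums were 432% and 984%. Mrap came under 2-fold with centring on the median, quantile normalization, normexp, the authors' deposited table and a pseudocount.

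Genes of the adrenal medulla, whose chromaffin cells store catecholamines, were higher in part. Of 13 markers 5 were higher by 2-fold or more and 1 lower, against 1.99% and 3.87% of all genes. The list's summed scaled signal was 2720.0% with saline and 3168% with vancomycin, but without Ddc, an enzyme gene that the proximal tubule also expresses and 1 of the 5 higher, it was 2089% and 1758%. Besides the chromogranins, Dbh, which makes noradrenaline, and Scg2, a granule protein gene, were above background with vancomycin only and at least 10.4-fold and 10.2-fold higher. Th, which makes the precursor of dopamine, had 32.5% with saline and 56% with vancomycin and Pnmt, which makes adrenaline, 4.04% with saline and 5.89% with vancomycin, both under 2-fold. Npy, of chromaffin cells and nerves, was lower. The part of adrenal tissue in the sample in these values was not tested.

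Fat markers differed in both directions. Among 15 white fat genes 7 were lower by 2-fold or more, against 3.87% of all genes, and 0 higher, with a median of -0.77 and a summed scaled signal of 24196% with saline and 18675% with vancomycin. The adipokine gene Adipoq had 131% with saline and 42.1% with vancomycin, and the resistin gene Retn had 135% with saline and 31% with vancomycin, with differences of -2.13 and -2.18 from its 2 probes. Cfd, the adipocyte factor of the complement system, had 1548% with saline and 509.5% with vancomycin. The leptin gene Lep differed by 0.23, and Lipe, a lipase of stored fat, by 0.32. Of the brown fat list, the thermogenic genes Ucp1, Cidea and Cox8b were higher, with Cidea at 33.9% with saline and 102% with vancomycin and Cox8b at 26.5% with saline and 94.3% with vancomycin, and Dio2, which activates thyroid hormone, was lower (-1.61). The median of its 7 genes on both arrays was 0.08. The perilipin and CIDE family of lipid droplet proteins split the same way, with Cidec (-1.74), Plin4 (-1.69) and Plin1 (-1.23) lower and Cidea (1.58) higher. Whether fat attached to the kidney moved these values was not tested. Dio2 and Plin1 came under 2-fold with normexp. Dio2 also did so with a pseudocount, and Plin1 with the mean over probes (-0.93).

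Contractile and matrix genes held many of the decreases. Of 13 smooth muscle and mesangial markers 6 were lower by 2-fold or more and 0 higher (median -1.09), and of 13 fibroblast markers 7 and 0 (median -1.14), against 3.87% and 1.99% of all genes. The summed scaled signal was 11653% with saline and 5611% with vancomycin for the first list and 6106% with saline and 3159.8% with vancomycin for the second. In bulk RNA, fewer cells of a type and less RNA per cell cannot be told apart. The calponin gene Cnn1 had 502% with saline and 84.4% with vancomycin, the tropomyosin gene Tpm2 393% with saline and 97.8% with vancomycin and the smooth muscle myosin gene Myh11 124% with saline and 42.3% with vancomycin, whereas the smoothelin gene Smtn, of the same cells, differed by 0.27. Mesangial and pericyte genes of the list differed less than these, with Itga8 at -0.77 and Pdgfrb at -0.49. In the actin family the muscle actins Actc1, Acta1 and Acta2 were lower (-1.97, -1.91 and -1.79). Other Acta2 probes on both arrays had -2.28 and -0.40, the latter from a bright probe at 606% with saline and 460% with vancomycin. The smooth muscle actin Actg2 was at -0.95 and the cytoplasmic actins Actg1 and Actb at -0.27 and 0.11. Actn2, a muscle actinin gene, had 584% with saline and 73.9% with vancomycin, lower by both of its probes.

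Among 39 collagen genes 9 were lower by 2-fold or more and 4 higher, against 3.87% and 1.99% of all genes (median -0.47, and -0.18 with normexp). Of the fibrillar collagens of connective tissue, grouped after their values were seen, Col1a1 was at 691% with saline and 194% with vancomycin and lower by all 3 measured probes, Col3a1 at -1.35, Col1a2 at -1.23 and Col5a1 at -1.23. Col24a1 (-1.82) and Col2a1 (-1.73) were lower with dim signals, Col5a2 and Col5a3 were at -0.57 and -0.57, and Col11a1 and Col11a2 at 0.63 and 0.58. The brightest probe of Col27a1 was higher (1.15), and its other probe, above background with saline only, had a bound of -3.88. Col4a3, a chain of the glomerular basement membrane, had 30.4% with saline and 172% with vancomycin, and its partner Col4a4 differed by 0.05 and Col4a1 by -0.47. Col6a1 and Col6a2 were lower (-1.06 and -1.49) and Col6a6 higher (2.04), though at 4.12% with saline and 16.9% with vancomycin near the dim end. Matrix-processing enzymes of the ADAMTS family had a median of -0.61 over 14 genes (-0.19 with normexp), with the procollagen peptidase genes Adamts2 (-1.30) and Adamts14 (-1.11). Of the list of extracellular matrix and fibrosis genes, 24 of 24 were below 0, from -3.43 for Tgfb2 to -0.40 for Tgfb1. These matrix lists share members with the fibroblast list and are not separate evidence. Endothelial markers had 0 of 15 past 2-fold, but 15 of 15 lay below 0, from -0.73 for Vwf, which encodes von Willebrand factor, to -0.10 for Tie1. Col2a1, Col24a1, Col6a6 and Adamts14 came under 2-fold with normexp, and Col3a1 (-0.93) and Col1a2 (-0.74) with the mean over probes.

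**Figure D3:**
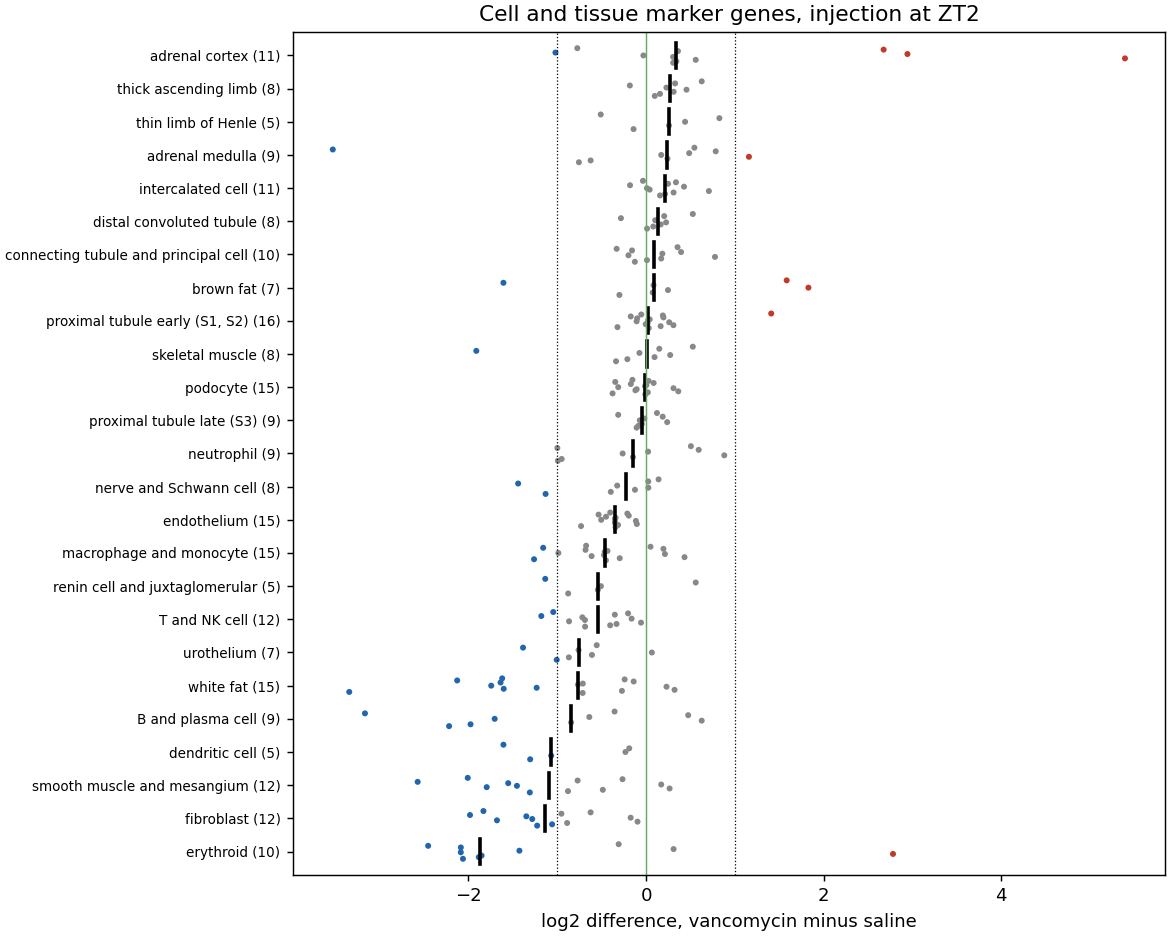
Log2 difference, vancomycin minus saline, of the marker genes of cells and tissues measured on both arrays (number in parentheses), each point a gene, with the median of each list as a black bar. Red and blue points are past 2-fold (dotted lines), and the green line is the median of all genes, 0.0045. Nephron lists sit near 0, and erythroid, fibroblast and smooth muscle lists lie lowest.

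Red cell genes were mostly lower. Of 11 erythroid markers 8 were lower by 2-fold or more, against 3.87% of all genes, with a median of -1.87 and a summed scaled signal of 8187% with saline and 3104% with vancomycin. The alpha-globin gene Hba-a1 had 3040.3% with saline and 716% with vancomycin, with -2.09 and -1.97 from its 2 probes, and Hba-a2, a near copy whose probe may capture the same RNA, had -2.09. Alas2, the red cell enzyme of haem synthesis, had 25.4% with saline and 4.64% with vancomycin. Klf1, the transcription factor that switches on globin genes, was the only member higher by 2-fold or more (2.78), and Slc4a1, an anion exchanger of red cells and of intercalated cells, differed by 0.31.

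Of the families described, immunoglobulin entries had the most members past 2-fold. Of all genes, 3.87% were lower and 1.99% higher by 2-fold or more. Of 175 measured heavy and light chain entries 141 were lower by 2-fold or more and 1 higher, with a median of -2.77 over the 89 on both arrays. Their probes share sequence, so the entries are not independent. Their summed scaled signal was 42096% with saline and 7655% with vancomycin. Jchain, which links antibody units in plasma cells, had 1797% with saline and 200.3% with vancomycin. Mzb1, a cofactor of antibody secretion, had 86.8% with saline and 18.6% with vancomycin. The list of 10 B and plasma cell markers, with 4 lower by 2-fold or more and 0 higher, had a summed scaled signal of 2095% with saline and 416% with vancomycin, and the part of these cells in the antibody values was not tested. Genes of mature B cells differed in sign, with Cd79b at -1.70 and Cd22 at 0.48. Of 15 T and NK cell markers 5 were lower by 2-fold or more, among them the T cell receptor complex gene Cd3d (-1.04), and all 12 on both arrays were below 0. All 5 dendritic cell markers on both arrays were below 0 as well, with the homing receptor gene Ccr7 at -1.61 and the integrin gene Itgax at -1.30. Cd79b, Cd3d, Ccr7 and Itgax came under 2-fold with normexp. Cd3d also did so with the authors' deposited table and a pseudocount, and Ccr7 with a pseudocount.

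Chemokines, the small proteins that guide leukocytes, had 11 of 26 measured genes lower by 2-fold or more and 0 higher, against 3.87% and 1.99% of all genes (median -0.85). The lymphoid homing ligand Ccl21a had 69.9% with saline and 17.2% with vancomycin, Ccl19, which binds the same receptor, 86.6% with saline and 30.8% with vancomycin, and the neutrophil attractant Cxcl1 11.7% with saline and 3.27% with vancomycin. Macrophage and monocyte markers, a source of such genes, had 3 of 16 lower and 0 higher by 2-fold or more, a median of -0.47 and 11 of 15 below 0. Their summed scaled signal, which bright genes dominate, went the other way, at 13326% with saline and 14759.8% with vancomycin. Their part in the chemokine values was not tested. Chemokine receptors had a median of -0.54, or -0.13 with normexp and 0.018 with no filter on dim probes, with Ccr2, the monocyte receptor, lower by at least 5.07-fold. The C-type lectin gene Clec10a, of macrophages and dendritic cells, had 57.6% with saline and 8.62% with vancomycin, and 5 of 22 genes of that family were lower by 2-fold or more. Il18bp, a decoy that binds interleukin 18, had 1176% with saline and 236% with vancomycin, lower by both of its probes. The cytokine gene Il1b was higher, at 3.31% with saline and 10.2% with vancomycin. Neutrophil markers had 0 of 9 past 2-fold, with S100a8 at -0.99 and Ltf at 0.88, and the Toll-like receptor gene Tlr1 was higher by both of its probes (1.62 and 1.41). Cxcl1, Ccr2, Il1b and Tlr1 (0.74) came under 2-fold with normexp.

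Antigen-presenting genes had values on both sides of 0. H2-Eb1 was lower 18.9-fold, whereas the other class II chains H2-Ab1 and H2-Aa differed by -0.72 and 0.13, their invariant chain Cd74 by -0.59, their peptide exchange factor H2-DMb1 by 1.08 and their master regulator Ciita by -0.17. H2-Eb1 was measured by 1 probe. The class I-like genes H2-T9 and H2-T3 were higher (2.04 and 1.104), and the H2 family of 28 genes had a median of 0.07. H2-T3 came under 2-fold with normexp.

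Of 68 measured cytochrome P450 genes 8 were higher by 2-fold or more and 3 lower, against 1.99% and 3.87% of all genes (median 0.12). The 3 lower genes were Cyp2b9 (68.6% with saline and 5.13% with vancomycin), Cyp2b10 (89.9% with saline and 8.89% with vancomycin) and Cyp2c29 (7.36% with saline and 2.31% with vancomycin). Cyp2b9 and Cyp2b10 are close paralogs, so signal shared between their probes cannot be told apart. Apart from the adrenal enzymes, the higher genes included Cyp2a4, a steroid hydroxylase gene, at 3440.3% with saline and 7887% with vancomycin, Cyp27b1, which activates vitamin D, at 125% with saline and 273% with vancomycin, and Cyp2d34 (1.09). Among conjugating enzymes, the glutathione S-transferase genes Gsta3 and Gstm7 were higher (1.19 and 1.14) and Mgst2 lower (-1.32). UDP-glucuronosyltransferases had 0 of 13 past 2-fold. The estrogen sulfotransferase gene Sult1e1 was lower by at least 3.59-fold. Among hydroxysteroid dehydrogenases, Hsd17b2 (1.098) was higher, and Hsd17b13 (-1.21) and Hsd17b11 (-1.04), both of lipid droplets, were lower. Among retinaldehyde dehydrogenases the signs were opposite, with Aldh1a1 at 109% with saline and 314% with vancomycin and Aldh1a2 at 31% with saline and 13.8% with vancomycin. With normexp Cyp2c29, Cyp2d34, Gstm7, Mgst2, Sult1e1, Hsd17b13 and Aldh1a2 came under 2-fold, and Hsd17b11 with centring on the median.

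Carrier families were centred near 0 with few members past 2-fold, where 1.99% of all genes were higher and 3.87% lower. Of 35 organic ion carriers 3 were higher, Slc22a8, the nicotinate and urate exchanger Slc22a13 (879.8% with saline and 1889.9% with vancomycin) and Slco1a4 (1.48), and 1 was lower, Slco1b2 (20.5% with saline and 3.50% with vancomycin). The efflux pumps of the Abcb1 pair, which export drugs from cells, differed in opposite directions, with Abcb1b at 2.83 and Abcb1a at 13.6% with saline and 5.58% with vancomycin, a log2 difference of -1.28. These were the 2 genes past 2-fold of 42 ABC transporters measured. Of 54 amino acid carriers 2 were higher, Slc1a2 (1.30) and Slc38a1 (1.08), and 3 lower, Slc7a12 (-1.19), Slc1a3 (-1.06) and the main neutral amino acid carrier of the proximal tubule, Slc6a19, at 532% with saline and 257% with vancomycin. Inorganic ion carriers had 1 of 50 past 2-fold, the sodium-proton exchanger gene Slc9a8 (1.03). The zinc carriers (20 genes) and monocarboxylate carriers (14) had 0. With normexp Abcb1a, Slco1a4, Slc1a2, Slc1a3 and Slc38a1 came under 2-fold, and Slc9a8 with the mean over probes.

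Metabolic lists had mostly small differences. The lists of fatty acid oxidation and of the citric acid cycle lay mainly above 0, and that of fatty acid synthesis had 5 genes above and 8 below. The list of fatty acid oxidation and PPAR-alpha (the nuclear receptor of fatty acids) had a median of 0.30 with 24 of 27 above 0 and 0 past 2-fold. Acsl1, which activates long fatty acids, was higher, at 1225% with saline and 2722% with vancomycin, as were the neighbouring acyltransferase genes Acnat1 (1.26) and Acnat2 (1.66), the latter by both of its probes. G6pc, the last enzyme of glucose release, had 2387% with saline and 7996% with vancomycin, whereas Pck1, an earlier enzyme of the same pathway, differed by 0.24. Of the fatty acid synthesis list, Thrsp, a regulator of lipogenesis, and Pnpla3, a lipid droplet enzyme, were lower (-1.61 and -1.51), and the synthase gene Fasn differed by -0.34. Citric acid cycle genes had 0 of 18 past 2-fold (median 0.12). Ddc, the aromatic amino acid decarboxylase that makes dopamine in the proximal tubule, had 631% with saline and 1410.1% with vancomycin and was higher by both of its probes (1.16 and 1.12). Acnat1 and Pnpla3 came under 2-fold with normexp, and Acnat1 also with the mean over probes (0.78).

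Families that every cell uses had small differences between these 2 arrays. All 82 cytosolic ribosomal protein genes lay between -0.28 and 0.14 with a median of -0.06. The 16 mitochondrially encoded entries lay between -0.03 and 0.14, and the 46 genes of respiratory complex I, subunits and assembly factors, between -0.43 and 0.30. Translation initiation factors (56) and ATP synthase subunits (18) also had 0 past 2-fold. Members past 2-fold in like families included Cox8b, a muscle and brown fat form of a cytochrome c oxidase subunit, and Psma8, a testis form of a proteasome subunit (-1.45). The mitochondrial ribosomal protein gene Mrpl35 was at -1.24. Psma8 and Mrpl35 came under 2-fold with normexp.

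**Figure D4:**
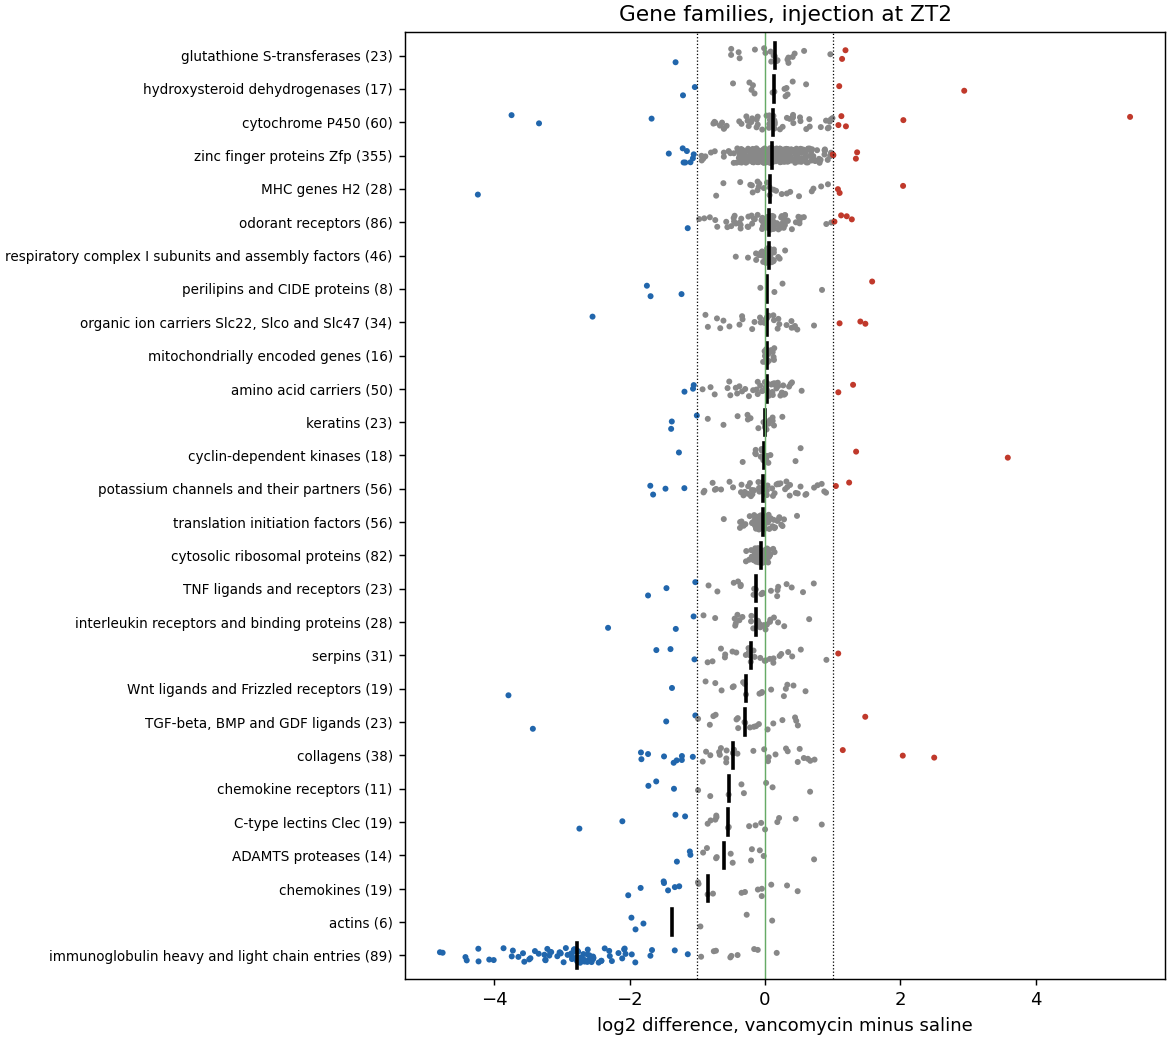
Log2 difference, vancomycin minus saline, of the members of gene families measured on both arrays (number in parentheses), drawn as in the plot of marker genes. Families drawn have 3 or more genes past 2-fold, bounds counted, or are among 4 housekeeping families, and not every such family is drawn. Immunoglobulin entries have a median of -2.77, and the 82 ribosomal protein genes lie between -0.28 and 0.14.

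Stress genes were higher in a few members, where 1.99% of all genes were higher by 2-fold or more. Of 16 heat shock genes 3 were higher by 2-fold or more, the inducible chaperones Hspa1a and Hspa1b and the small chaperone Cryab, at 1700.4% with saline and 4357% with vancomycin. Hspa1a had 619.9% with saline and 2759% with vancomycin and Hspa1b 508% with saline and 1631% with vancomycin. The genes lie next to each other and are near copies, so their probes may capture the RNA of both. Their promoters, the 250 bases before the RefSeq start in GRCm38.p6 on the minus strand, chr17:34972157-34972406 and chr17:34959239-34959488, were alike at 247 of 250 bases (98.8%) and are shown because both genes were higher together. Capitals mark GAANNTTC, the core of the element bound by heat shock factors, which reads the same on both strands. It was found in 6.69% of all 32851 promoter windows and in 5 of the 12 heat shock genes with a window:
Hspa1a: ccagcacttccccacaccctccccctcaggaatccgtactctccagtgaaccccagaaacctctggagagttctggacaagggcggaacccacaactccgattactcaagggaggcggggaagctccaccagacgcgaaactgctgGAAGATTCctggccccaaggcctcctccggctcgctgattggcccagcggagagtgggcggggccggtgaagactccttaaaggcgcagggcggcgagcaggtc
Hspa1b: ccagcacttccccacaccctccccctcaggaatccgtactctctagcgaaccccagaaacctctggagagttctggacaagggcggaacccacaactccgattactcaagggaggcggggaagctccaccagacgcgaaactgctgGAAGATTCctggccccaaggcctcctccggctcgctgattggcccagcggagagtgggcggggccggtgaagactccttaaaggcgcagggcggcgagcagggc
The match began 104 bases before the start in both. The other genes with a match, Hspb1, Hspd1 and Hspe1, differed by 0.31, -0.01 and 0.07. The windows of Hspd1 and Hspe1 overlap on opposite strands and share the same site. With the near copies Hspa1a and Hspa1b, the 5 genes are therefore not 5 separate sites. The 12 genes had 16 windows, any of which counted, whereas the share of all promoters is per window. Of 20 genes of the unfolded protein and integrated stress response, 2 were higher, the transcription factors Atf3 (10.9% with saline and 23.5% with vancomycin) and Ddit3 (65% with saline and 139% with vancomycin). The cytokine gene Gdf15, a stress marker of tubules, had 183% with saline and 510.5% with vancomycin. Of 19 p53 targets 1 was lower by 2-fold or more, against 3.87% of all genes, and 0 were higher. Cell death genes had 0 of 22 past 2-fold, and the glucocorticoid response list 0 of 18. Atf3 and Ddit3 came under 2-fold with normexp.

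The circadian clock is a feedback loop in which CLOCK or NPAS2 with BMAL1 (Arntl) switch on genes that carry an E-box, CACGTG, among them their own repressors. Of 21 clock genes 3 were higher by 2-fold or more and 2 lower, against 1.99% and 3.87% of all genes. Dbp, an output transcription factor, had 2169.6% with saline and 533% with vancomycin, with -2.03 and -2.12 from its 2 probes, and Ciart, a repressor, had 14.7% with saline and 3.25% with vancomycin. Arntl had 29% with saline and 62.8% with vancomycin and was higher by all 3 probes (1.11, 2.01 and 2.42), Npas2 had 2.35% with saline and 7.24% with vancomycin and Nfil3, which opposes Dbp at its target sites, had 59.3% with saline and 145% with vancomycin. E-boxes in the same window were found in 6.02% of all promoters and in 5 of 18 clock genes with a window, Ciart, Per1, Cry1, Tef and Bhlhe41. The 18 genes had 26 windows, any of which counted, whereas the share of all promoters is per window. The Ciart promoter, chr3:95882229-95882478 on the minus strand, is shown because it held 3 of them, at 116, 58 and 44 bases before the start (in capitals):
Ciart: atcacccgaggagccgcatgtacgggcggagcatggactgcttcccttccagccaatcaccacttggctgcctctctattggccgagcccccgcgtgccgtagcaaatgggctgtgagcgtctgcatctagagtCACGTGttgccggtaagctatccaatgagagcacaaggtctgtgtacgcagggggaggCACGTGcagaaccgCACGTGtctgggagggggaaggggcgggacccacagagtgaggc
Dbp, Arntl, Npas2 and Nfil3, the other clock genes past 2-fold, had 0 matches in their windows. Of the other genes with a match, Per1 differed by -0.49, Cry1 by 0.64 and Tef by -0.45, and Bhlhe41 was not well above background on either array. Ciart (-0.70), Npas2 (0.53) and Arntl (0.89) came under 2-fold with normexp.

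Of cell cycle genes 9 of 28 were lower by 2-fold or more, against 3.87% of all genes, with a median of -0.76. The proliferation marker Mki67 had 52.4% with saline and 24.8% with vancomycin and the mitotic regulator Cdc20 119% with saline and 49.4% with vancomycin, and Tyms, of nucleotide synthesis, was the highest of the list at 0.63. The MCM helicase family, which opens replication origins, had a median of -0.18 with Mcm10 lowest (-1.13). Urothelial markers had a median of -0.76, with 2 of 8 lower by 2-fold or more. The basal keratins Krt5 and Krt14 had -1.39 and -1.01 and the uroplakins Upk2 and Upk3a, plaque proteins of the luminal layer, -0.56 and -0.61. The renin gene Ren1, of juxtaglomerular cells, had 66% with saline and 30.04% with vancomycin. Of 28 genes of tubular injury and repair 3 were higher by 2-fold or more and 2 lower, against 1.99% and 3.87% of all genes. The higher ones were Havcr1, Gdf15 and Atf3. The lipocalin gene Lcn2 differed by -0.93, the urokinase receptor gene Plaur by -1.53 and the fibrinogen gene Fgb was lower by at least 4.33-fold. Mki67, Krt14, Ren1, Plaur and Fgb came under 2-fold with normexp, and Mcm10 with the mean over probes.

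Signalling families held a few isolated members. Among Wnt ligands and receptors, Wnt10a was lower 13.8-fold and Fzd9, a Frizzled receptor gene, by 2.59-fold. Fibroblast growth factors had a median of 0.38 (0.13 with the mean over probes), with Fgf9 (87.6% with saline and 204% with vancomycin) and Fgf10 (2.52% with saline and 7.64% with vancomycin) higher. Of the TGF-beta superfamily, Tgfb2 and Tgfb3 were lower (-3.43 and -1.46), and Tgfb1 differed by -0.40. Of 1106 odorant receptor entries 117 were measured, 86 of them on both arrays. Of the 117, 7 were higher by 2-fold or more and 1 lower, against 1.99% and 3.87% of all genes. An entry measured on 1 array only could count only as higher on that array. The largest increase was that of Olfr1085, not well above background with saline and at 29.1% with vancomycin. Zinc finger genes of the Zfp series had a median of 0.11 over 355 genes. Major urinary proteins, pheromone carriers of male mice, had 3 of 7 lower and 0 higher, but their copies share nearly all sequence. Fzd9 and Fgf10 came under 2-fold with normexp.

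Different probes of 1 gene give a check inside each array. Of genes with an ordinary symbol, 6879 had 2 or more different probes above background on both arrays. Across these genes, which are not independent replicates, the differences of the 2 brightest probes had a Pearson's r of 0.541. They had the same sign in 68.3% of genes. Where the brightest probe was past 2-fold (160 genes), the second had the same sign in 88.8% and was itself past 2-fold that way in 51.3%. For the 17 genes past 4-fold these shares were 94.1% and 82.4%. For higher genes (51) the second probe was past 2-fold in 39.2%, and for lower genes (109) in 56.9%. A total of 17 genes were higher and 52 lower by 2-fold or more with every probe above background on both arrays.

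Probes close together gave closer values. For pairs on the same strand under 1 kb apart the r was 0.743, for 1 to 10 kb 0.538 and for 10 kb or more 0.37. Among genes past 2-fold, the second probe was also past 2-fold in 73.2% (41 of 56), 44.6% (29 of 65) and 30.8% (12 of 39) of pairs. The brightness of the second probe also bore on this, since r was 0.425 where its scaled signal was under 10% and 0.777 where it was over 1000%. The distance and the brightness were not separated.

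The next genes had an ordinary symbol and were backed by every probe above background on both arrays. Of these, Tgfb2 had the largest decrease by the smaller of its probes' differences (-3.43 and -3.16), followed by Actn2 (-2.98 and -3.56). Cwc22, a splicing factor gene, came next. Of its 5 measured probes, 3 were above background on both arrays, with -2.88, -3.31 and -2.75. The testis genes Ct55 and Tex21 and Ankrd35 were lower by both probes as well, with the brighter probe at -2.26, -2.20 and -1.99. On the other side were Psmc3ip, a recombination cofactor gene (2.22 and 2.30), the albumin gene Alb at 7.32% with saline and 24.6% with vancomycin (1.75 and 1.90), the cadherin gene Cdh4 (1.38 and 1.80), Susd2, a membrane protein gene (281% with saline and 728% with vancomycin), the potassium channel gene Kcnj12 (1.24 and 1.15) and Tmem243 (1.11 and 1.37). Cdh4, Kcnj12 and Tmem243 came under 2-fold with normexp.

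Some genes had probes that did not match. Among probes above background on both arrays, 2 genes had probes past 2-fold in opposite directions. The lamin gene Lmnb2 had 1.70 and -1.06, and the prostacyclin synthase gene Ptgis had -1.22, -0.95 and 1.18. In 9 genes the brightest probe lay within 0.25 of 0 and the second was past 4-fold, lower in 7 and higher in 2. These genes were named after their values were seen. Pbrm1, a chromatin remodelling subunit gene, had 5 probes. The 2 that lay farthest along the gene on chromosome 14 had -2.68 and -2.80, and the other 3 had -0.08, 0.15 and 0.37. Timm10b, a mitochondrial import gene, had -2.82 at 1 probe and 0.08 at its brightest, Aasdh -3.30 and 0.14, and the prohibitin gene Phb2 3.50 and 0.09. For Tmem41b the probes had -1.69 and -5.67, and for Naaladl2 -3.90 and 0.46, so the decrease given for Naaladl2 rests on 1 of its probes.

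**Figure D5:**
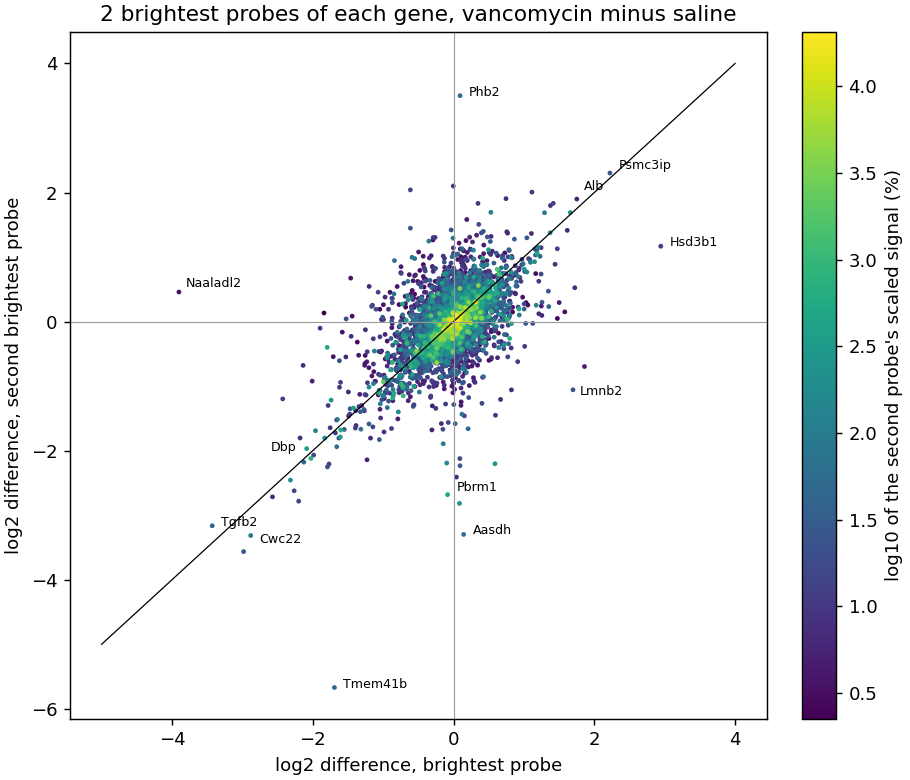
Log2 difference, vancomycin minus saline, of the second brightest probe against that of the brightest probe for 6879 genes with 2 or more probes above background on both arrays, coloured by the second probe's scaled signal. The line marks equal values. Psmc3ip, Tgfb2 and Cwc22 lie near the line, and Phb2, Aasdh and Naaladl2 lie away from it.

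Some genes past 2-fold in the same direction lay near each other in the genome. With coordinates of the array files (mm9), runs of at least 3 such genes, each within 500 kb of the next, were counted after the values were seen. There were 5 runs of higher genes, holding 16 of 266 higher genes with coordinates, and 25 runs of lower genes, holding 158 of 624, of which 22 runs had no immunoglobulin entry. Genes under 2-fold could lie between the members of a run. In the run on chr17:34453075-35340334, for example, 4 of 60 measured genes were past 2-fold. The number of runs to be met without any grouping was not estimated. In 3 runs outside the immunoglobulin loci every measured gene was past 2-fold. On chr3:98656330-98739637 these were Hsd3b1 (2.94), the hydroxyacid oxidase gene Hao2 (1.78), the clone 5730437C11Rik and an unnamed probe. On chr4:49221403-49460222 they were Plppr1 (1.27), Acnat2 and Acnat1. On chr15:63608169-63723337 they were the gasdermin genes Gsdmc (-1.28), Gsdmc2 (-1.17), Gsdmc3 (-1.20) and Gsdmc4 (-1.05), close paralogs of a pore-forming family. The small proline-rich genes of the epidermal differentiation complex, Sprr2f, Sprr2g and Sprr1a, were lower together (-1.27, -1.19 and -1.29) on chr3:92170259-92387941, where 4 of 7 measured genes were past 2-fold. Paralogs in a run can share probe sequence. The median difference of whole chromosomes stayed between -0.066, for 10 genes of the Y, and 0.026. Plppr1, Gsdmc, Gsdmc2, Gsdmc4 and Sprr2g came under 2-fold with normexp. Plppr1, Gsdmc4 and Sprr2g also did so with a pseudocount, and Gsdmc4 with the authors' deposited table.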

How the data were processed

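The 2 samples were hybridised to Agilent 1-colour mouse arrays with Cy3-labelled RNA. Per the file headers, the deposited intensity values are background-subtracted processed signals from Agilent Feature Extraction 10.7.1.1, whereas 9.5.1.1 is the version in the submitters' processing notes. The authors' deposited value table holds linear intensity values of the same arrays with the same quantiles in each column, how they were made is not stated, and it was used as an alternative after a log2.

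Each array's log2 signal was centred on its 75th percentile. Control spots and outlier spots were left out, spots of a probe were averaged, a probe was kept where 50% or more of its spots were well above background, and a gene took its brightest probe. Where a probe was above background on 1 array only, its mean there was set against the higher of its own signal and the lowest signal well above background on the other array. That dimmest level was 1.91% of the 75th percentile with saline and 2.25% with vancomycin. Of the probes, 32994 were named through accession, 10224 by symbol and 520 by synonym in the RefSeq GRCm38.p6 table, and 12867 kept the name of the array design. Probe coordinates are mm9, per the file headers. Promoters are RefSeq's. Genes past 2-fold were counted, and no test was run, since each group had 1 array. The number of arrays limits the precision.

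Genes were named by a rule: the 12 highest and lowest on both arrays and the 6 each way with the largest bounds. The rule also took the 12 each way with the largest difference shared by all probes above background on both arrays. Up to 3 each way in each list were taken too, with its defining members. Genes outside the rule are given for their role. A few genes that the rule names are not reported here. Gene lists, families and this rule were chosen with earlier results of these data known. Alternatives were other centring, quantile and loess normalization, the deposited table, other filters on dim probes, the mean over probes and outlier spots kept. Normexp with an offset of 50 (limma 3.58.1, R 4.3.3) and a pseudocount of 16 were also tried, and both add a constant to every signal. Calculations used Python 3.11.15, numpy 2.4.6 and pandas 2.3.3, and were tested on simulated data.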

Additional observations from a re-analysis of the deposited data

Results flagged for a closer look

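Some values had opposite signs after injection at ZT2 and at ZT14, where 1 vancomycin and 1 saline array were compared in the same way. With 1 array a group, the difference between the 2 times was not tested. The brightest probe was picked at each time separately, so the 2 values of a gene with several probes may come from different probes. Hdc differed by -7.46 at ZT2 and by 9.75 at ZT14 on the log2 scale, so the direction of the gene that makes histamine was opposite. Havcr1 differed by 3.89 and -3.56, Cdk14 by 3.59 and -1.14, and Adm2 by 2.70 and -1.50. Cwc22 was at -2.88 and 1.94, and Naaladl2 at -3.90 and 1.13, where the decrease of Naaladl2 at ZT2 rests on 1 of its probes. H2-DMb1 was at 1.08 and -4.80, Aldh1a1 at 1.53 and -1.57, Cyp27b1 at 1.13 and -1.50, Slc38a1 at 1.08 and -1.22, and Krt5 at -1.39 and 1.33. The median of the urothelial markers was -0.76 at ZT2 and 0.85 at ZT14, and that of the cell cycle list -0.76 and 0.54. Subunits of GABA receptors had medians of 0.51 and -0.28 over the 5 above background on both arrays at each time, but at ZT2 the median of the 10 measured, bounds counted, was -0.0050. The 5 microRNA host entries had medians of -0.33 and 0.25.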

How the results depend on the processing

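Of the 60 genes named for their size of difference or their probes, 52 kept their side of 2-fold under the alternatives tried, and 0 of 589 values reversed. Of 165 other genes of the text 111 were past 2-fold, 59 of them under every alternative tried, with 0 reversed. Of the 111, 47 came under 2-fold with normexp and 25 with a pseudocount, against 0 to 6 under the others. With normexp the log2 differences of Tlr1 (0.74), Cdh4 (0.88), Kcnj12 (0.83), Arntl (0.89) and Tmem243 (0.997) came under 2-fold, and Prim2, Lmnb2 and Ptgis did so with the mean over probes (0.08, 0.32 and -0.33). Counts of genes depended on how dim signals were treated. Against 459 higher genes, there were 132 with normexp, 300 with probes above background on both arrays only, 2401 with no filter and 211 with a pseudocount of 16. Against 893 lower genes, the counts were 333 with normexp, 2078 with no filter and 543 with the pseudocount. Of the genes past 2-fold 33.9% were higher, and 53.6% with no filter, where the median of all genes was 0.11. Of lists with a median at or below -0.25, normexp left 19 of 33, and centring on the median gave 13 rather than 8 at or above 0.25. With no filter the medians of chemokine receptors (0.018), interleukins (0.22) and microRNA host entries (0.14) reversed. Of 41 lists past 0.25, 19 stayed so under the alternatives tried. The share of genes past 2-fold whose second probe had the same sign was 88.8%, 93.4% with normexp and 65.8% with no filter. The cause was not tested. No paired analysis was possible because each group has 1 array, and for that reason no array could be left out. By their labels both arrays share the injection time and the day of sampling. Animal-to-animal spread, array position and any difference in sampling time within that day are not separated from treatment.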
